A study of Mus musculus with 4 samples.

Results

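The circadian clock genes of the small intestine (SI) were examined of WT mice and of p53-/- mice, 1 day after total-body irradiation (TBI) with 12 Gy. They were taken by name, as the 10 genes Arntl, Clock, Npas2, Per1, Per2, Per3, Cry1, Nr1d1, Nr1d2 and Dbp, out of 56748 genes in the deposited count table. Each name occurred once, and all 10 genes were among the 16094 with enough reads to be tested. The set had been chosen from a comparison of these same libraries, with the genotype difference in view, so the genotype differences of these 10 genes are a description and support nothing further. Both groups of 2 mice were irradiated with a Cs-137 γ-source, and SI without irradiation was not analysed here. WT mice carry p53, and p53-/- mice lack it in the germline and so in all cells of the SI. The study states that its mice were 8–12 weeks old, matched for age and gender, and kept in a light-dark cycle. The hour at which the SI was collected is not given in the sources used here, and each mouse gives a single time, so neither the phase nor the amplitude of a rhythm can be read from these libraries.

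The molecular clock is a feedback loop of transcription that runs in nearly every cell. BMAL1, encoded by Arntl, pairs with CLOCK or its paralog NPAS2, binds E-box sequences and drives the PER, CRY and REV-ERB genes and Dbp. PER and CRY proteins return to block this pair, while the REV-ERB receptors repress Arntl and Npas2 at the elements that the ROR receptors activate. In the intestine the clock is known to follow feeding and to time nutrient absorption and the contact of the epithelium with microbes.

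The 4 libraries held between 15005479 and 22173164 counts. Columns of the table carry the numbers 7 and 8 for WT and 9 and 10 for p53-/-, used here only as names. Levels are counts per 1000000 counts of the library (CPM) after TMM scaling, which equalizes libraries over most genes. Trp53, the targeted gene, was at 57.7 and 47.1 CPM in WT and at 19.8 and 22.5 CPM in p53-/- libraries. Libraries stood apart in cell content. The 7 smooth muscle markers summed to 5430 CPM in WT library 8 and to between 701 and 1345 CPM in the other three. The 6 B cell markers summed to 431 CPM in p53-/- library 10, against 21.8 CPM in library 9 and at most 1.82 CPM in WT, and 18S ribosomal RNA took 4.59% of the counts of library 10 and at most 0.863% elsewhere. The 10 enterocyte markers, which define the labelled tissue, were present in all libraries at sums of 31070 and 29659 CPM in WT and 23519 and 19462 CPM in p53-/-. Some genes known to be abundant in the SI were counted at few reads (Fabp1 at 55 to 88, Tagln at 23 to 145 counts per library), so that a low count in this table is not by itself a low expression. The part of the counting in this was not tested.

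Promoter sequences are shown for 6 of the 7 genes with a letter match to a clock element in a window, since these elements join the members into one loop. Clock, whose match lies at only 1 of its 3 starts, is given by position alone. The matches of Per1 lie at 1 of its 2 starts, the one printed below, and that of Arntl at 1 of 2. RefSeq windows (GRCm38.p6) from 250 bases before to 50 after the start were at hand for 9 of the 10 genes, with no entry for Per2. Capitals mark the E-box CACGTG, its variant CACGTT, the D-box TTATGTAA, which DBP and NFIL3 bind, and AGGTCA, bound by REV-ERB and ROR receptors, each searched on both strands. The 250 bases before the start are printed 5′ to 3′ on the strand of the gene.
Nr1d1: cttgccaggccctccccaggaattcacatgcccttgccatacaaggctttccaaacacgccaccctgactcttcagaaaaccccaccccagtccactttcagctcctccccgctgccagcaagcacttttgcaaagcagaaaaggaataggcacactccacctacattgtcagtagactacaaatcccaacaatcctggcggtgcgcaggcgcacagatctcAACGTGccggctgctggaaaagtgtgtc
Nr1d2: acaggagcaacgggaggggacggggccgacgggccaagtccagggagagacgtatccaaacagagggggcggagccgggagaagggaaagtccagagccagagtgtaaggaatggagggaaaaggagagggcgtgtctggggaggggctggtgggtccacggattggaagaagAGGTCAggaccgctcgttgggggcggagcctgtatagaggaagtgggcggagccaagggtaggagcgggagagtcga
Per1: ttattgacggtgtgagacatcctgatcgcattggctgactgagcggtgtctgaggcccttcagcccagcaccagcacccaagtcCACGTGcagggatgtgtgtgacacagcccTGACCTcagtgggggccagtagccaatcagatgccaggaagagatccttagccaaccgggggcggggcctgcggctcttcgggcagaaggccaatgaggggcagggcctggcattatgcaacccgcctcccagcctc
Cry1: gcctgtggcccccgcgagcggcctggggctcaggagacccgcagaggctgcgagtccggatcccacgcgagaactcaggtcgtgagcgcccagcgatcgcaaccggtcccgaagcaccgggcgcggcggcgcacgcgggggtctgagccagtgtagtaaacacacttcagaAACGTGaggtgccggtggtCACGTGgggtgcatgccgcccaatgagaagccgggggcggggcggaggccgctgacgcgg
Per3: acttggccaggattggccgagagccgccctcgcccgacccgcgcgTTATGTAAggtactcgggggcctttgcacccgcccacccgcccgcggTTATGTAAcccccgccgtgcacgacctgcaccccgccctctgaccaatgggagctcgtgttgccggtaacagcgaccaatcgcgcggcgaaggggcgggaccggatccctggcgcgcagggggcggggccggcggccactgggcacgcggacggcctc
These lie at chr11:98775378-98775627 (minus strand), chr14:18239107-18239356 (minus), chr11:69098699-69098948 (plus), chr10:85185055-85185304 (minus) and chr4:151044666-151044915 (minus). Cry1 and Per1 hold CACGTG at -60 and -166, counted to the first base of the match, and 7.15% of all 32851 windows of this length hold one. Cry1 also holds the variant at -79 and Nr1d1 holds it at -28, and 4.68% of all windows do. Per3 holds TTATGTAA at -205 and -158, which 0.938% of windows hold. AGGTCA was in a window of Nr1d2 (at -77), Per1 (at -137), Clock (at -119 of 1 of 3 starts) and Arntl, and 16.3% of windows hold it. In Arntl it lies after the second start, shown for its role as the target of the REV-ERB receptors, at chr7:113207530-113207559 (plus).
Arntl: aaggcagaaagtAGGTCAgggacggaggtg
The palindromic glucocorticoid response element was in no window of the 9 genes, and 0.0487% of all windows hold it. The p53 half-site was likewise in none of them, against 8.36% of all windows. A match or its lack in these windows says nothing of binding.

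Of the 10 genes, 8 had a level in p53-/- libraries below or above both WT libraries, 6 of them lower and 2 higher. Over all genes tested, 50.7% did not overlap between the genotypes, 24.4% lower and 26.4% higher. By edgeR's quasi-likelihood test adjusted over all genes, 1 of the 10 passed the threshold of 0.05 (Nr1d1, lower) and 0 were higher. Of all genes 0.491% passed, 0.298% higher and 0.193% lower. At an unadjusted p under 0.05, 3 of the 10 were lower, against 7.92% of all genes. A log2 fold change of at least 1 in size was seen in 2 of them, both lower, against 16.7% of all genes in either direction and 5.3% lower. DESeq2 called 2 of them, both lower, where it called 9.94% of all genes, 4.47% lower and 5.47% higher. The median log2 fold change (p53-/- minus WT) was -0.54 over the 10 genes and -0.01 over all genes. Nothing is read from these counts, since the set was chosen on the same contrast.

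**Figure D1:**
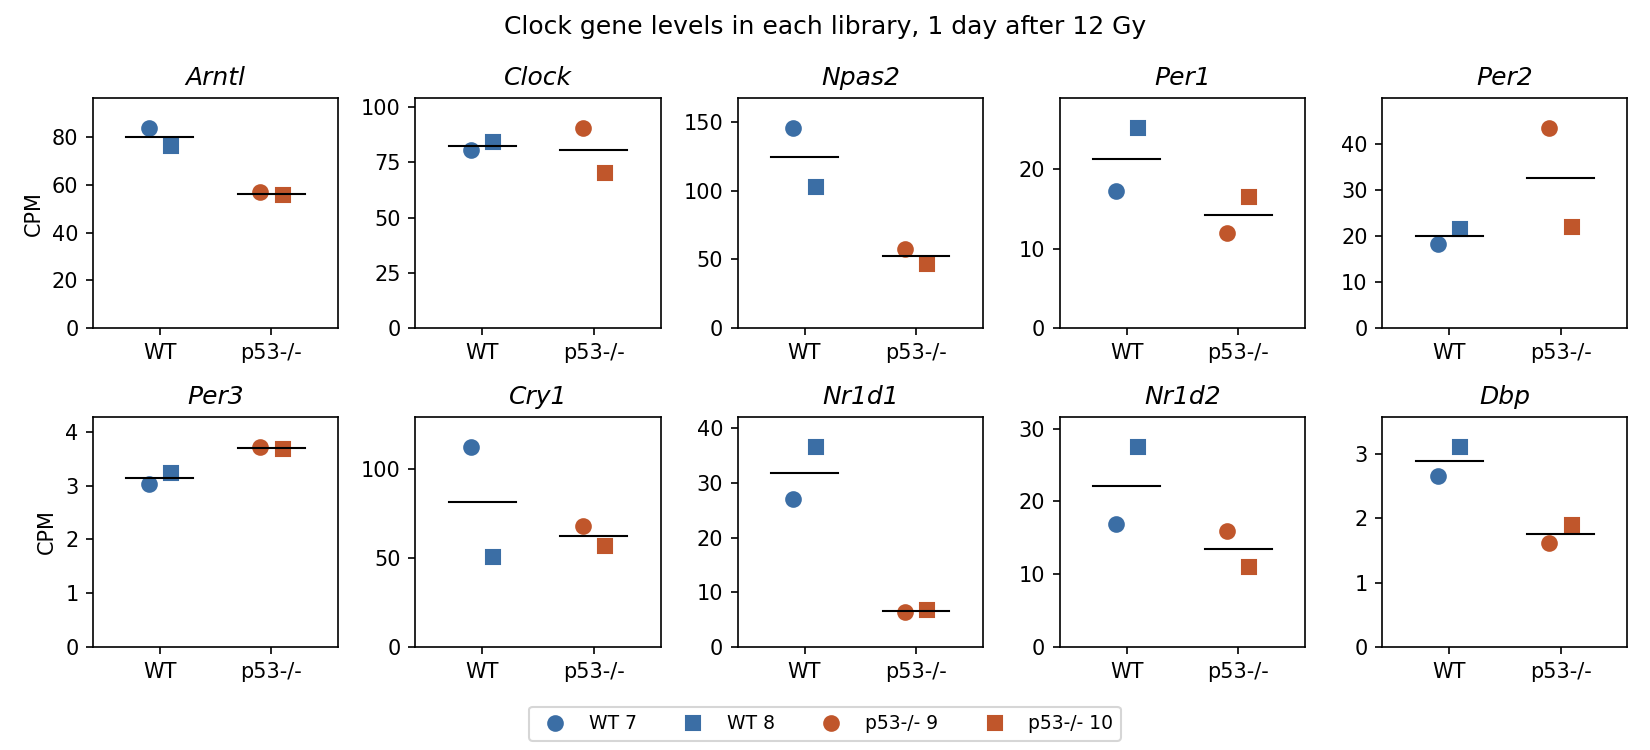
Level of each of the 10 clock genes in CPM (vertical axis, from 0, its own scale in each panel) in WT (blue) and p53-/- (orange) libraries, with a point for each library and a line at the mean of 2. Nr1d1 lies between 27.0 and 36.6 CPM in WT and between 6.36 and 6.67 CPM in p53-/-, while Clock and Cry1 overlap between genotypes.

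Among the activators, Arntl was at 83.7 and 76.2 CPM in WT and at 57.2 and 55.5 CPM in p53-/- libraries. The genotypes did not overlap, and the log2 fold change was -0.51 (standard error 0.149). The enterocyte markers moved alongside, with a mean log2 level 0.54 lower in p53-/- libraries (-0.54). All 10 had a negative log2 fold change, from -0.06 for Sis to -0.93 for Alpi. Of them 7 were lower without overlap, against 24.4% of all genes. By edgeR's quasi-likelihood test 0 of the 10 passed the threshold, and 2 had an unadjusted p under 0.05, against 7.92% of all genes called lower so. Against the mean of the enterocyte markers within each library, the Arntl difference was 0.04 on the log2 scale with overlapping genotypes. This scaling was added after the data were seen, and it rests on the mean of markers that differ in size of change. Crypt markers differed the other way, with 6 of 7 higher and 1 (Ascl2) lower in p53-/- SI, all without overlap. Over all genes, 26.4% were higher and 24.4% lower without overlap. By edgeR's quasi-likelihood test 0 of the 7 passed the threshold. At an unadjusted p under 0.05, 3 were higher, against 10% of all genes. Olfm4, a stem cell marker, was at 47.6 and 16.0 CPM in WT and at 473 and 525 CPM in p53-/-, and Mki67, a marker of dividing cells, at 55.9 and 37.4 CPM against 138 and 136 CPM. The part of these cell types in the clock gene differences was not tested. In bulk SI, fewer cells of a type and less RNA per cell cannot be told apart.

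Npas2, whose product can take the place of CLOCK, was at 146 and 103 CPM in WT and at 57.6 and 46.7 CPM in p53-/- libraries. Both p53-/- values lay below both WT values, at a log2 fold change of -1.25 (standard error 0.233). Its adjusted p was 0.0998 by edgeR's quasi-likelihood test and 0.000110 by DESeq2. The edgeR value was 0.0964 with scaling by library size only and 0.0986 with upper-quartile factors. Leaving out 1 library at a time gave log2 fold changes from -1.49 to -0.97. Against the enterocyte markers the difference was -0.70, still without overlap. Clock itself was at 80.7 and 84.0 CPM in WT and at 90.5 and 70.2 CPM in p53-/-, so the p53-/- libraries lay on either side of WT. Its log2 fold change was -0.04 (standard error 0.184), with a positive sign under several other scalings and filters. Against the enterocyte markers it was 0.49 higher in p53-/- SI, without overlap. Arntl2, the paralog of Arntl, was near 1 CPM in all libraries (1.24 to 1.49 CPM).

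The REV-ERB receptors held the largest difference of the 10 genes. Nr1d1, which encodes REV-ERBα, had 436 and 564 counts in WT and 145 and 134 counts in p53-/- libraries. This was 27.0 and 36.6 CPM against 6.36 and 6.67 CPM, 4.88-fold lower in p53-/- SI. The log2 fold change was -2.29 (standard error 0.257, adjusted p = 0.0456 by edgeR's quasi-likelihood test). On simulated counts of this design the test made more false calls than its threshold states, so an adjusted p just under 0.05 is weak. The p53-/- libraries lay close together, and WT library 8 was the higher of the WT pair. Leaving out 1 library at a time gave log2 fold changes from -2.48 to -2.06. Its adjusted p was 0.109 without library 9 and 0.381 without library 10, in fits that assume the lone p53-/- library varies like the WT pair. Its adjusted p by edgeR's quasi-likelihood test was 0.0692 with scaling by library size only and 0.0630 with upper-quartile factors. It was 0.0583 with at least 10 counts in every library and 0.0589 without the 18S gene, by the same test. By DESeq2 it was 7.39e-10. Without library 10 no gene of the table passed, with 1201 genes at an unadjusted p under 0.05. Against the enterocyte markers Nr1d1 was lower by a log2 difference of -1.71, again without overlap. The strands of Nr1d1 and Thra, the thyroid hormone receptor α gene, share 263 exon bases at their ends in GENCODE M21, which is 8.55% of the exon bases of Nr1d1. Thra was at 69.3 and 79.6 CPM in WT and at 44.0 and 43.8 CPM in p53-/-, and the strand setting of the counting is not given, so reads of the shared stretch cannot be told apart.

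Adipocyte markers also differed with Nr1d1. Of 7 markers, 6 were tested and all 6 were lower in p53-/- SI without overlap, against 24.4% of all genes. All 6 had an unadjusted p under 0.05, against 7.92% of all genes called lower so. By edgeR's quasi-likelihood test 2 passed the threshold, both lower, where 0.193% of all genes were called lower. They were Cfd (log2 fold change -8.79, adjusted p = 0.0296) and Car3 (-6.16, adjusted p = 0.0279). The 7 summed to 154 and 106 CPM in WT and to 22.5 and 19.8 CPM in p53-/- libraries. Cidec was the largest part of each sum, at 117 and 43.2 CPM in WT and 18.4 and 13.8 CPM in p53-/-. Within WT, Cidec was lower in library 8, while Cfd, Car3, Adipoq, Plin1 and Fabp4 were higher there. Plin1 had 0 counts in both p53-/- libraries, and Adipoq had 0 and 3. Their part in the Nr1d1 difference was not tested.

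Nr1d2, encoding REV-ERBβ, was at 16.8 and 27.5 CPM in WT and at 16.0 and 10.9 CPM in p53-/- libraries. The lower WT value lay just above the higher p53-/- value. The log2 fold change was -0.72 (standard error 0.344), and it was -0.33 without WT library 8. Of the opposing ROR receptors, Rora was at 2.29 to 6.81 CPM in WT and at 5.0 to 6.37 CPM in p53-/-. It overlapped, with a log2 fold change of 0.32, and Rorb had at most 2 counts in a library and was not tested.

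The PER genes, which encode the repressors that mark the phase of the cycle, went different ways. Per1 was at 17.3 and 25.2 CPM in WT and at 11.9 and 16.5 CPM in p53-/-, a log2 fold change of -0.58 (standard error 0.304). It ranged from -0.82 to -0.29 with 1 library left out, and against the enterocyte markers it was -0.028, with overlap. Per2 was at 18.3 and 21.6 CPM in WT and at 43.4 and 21.9 CPM in p53-/-, a log2 fold change of 0.71 (standard error 0.355). The high Per2 value belonged to library 9 alone, and without that library the log2 fold change was 0.13. Against the enterocyte markers Per2 was 1.17 higher, without overlap. Per3 was at 3.03 and 3.24 CPM in WT and at 3.73 and 3.68 CPM in p53-/-, from 49 to 85 counts a library. Its log2 fold change was 0.24 (standard error 0.397). Per1 alone of the PER genes was lower in both p53-/- libraries.

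Cry1, which encodes a repressor of the BMAL1 pair, was at 113 and 50.6 CPM in WT and at 68.0 and 57.0 CPM in p53-/-. The WT libraries enclosed both p53-/- libraries. Its log2 fold change was -0.39 (standard error 0.382), and it turned to 0.31 without WT library 7 and to -0.86 without WT library 8. Cry2 was at 10.6 and 26.3 CPM in WT and at 23.0 and 17.9 CPM in p53-/- and overlapped too. The low Cry1 value and the high Cry2 value of WT were both in library 8, the library with the highest smooth muscle markers. The part of muscle in these values was not tested.

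Dbp, a PAR bZIP factor that carries the rhythm to output genes through D-boxes, had few reads, with 43 and 48 counts in WT and 37 and 38 in p53-/- libraries. It was at 2.66 and 3.11 CPM against 1.62 and 1.89 CPM, a log2 fold change of -0.72 (standard error 0.447) without overlap. In GENCODE M21, 539 of its 2993 exon bases (18%) are shared with Sphk2 on the other strand, which was at 93.3 and 73.6 CPM in WT and at 61.5 and 53.4 CPM in p53-/-. The ratio of Dbp to Arntl within a library, which needs no scaling, was 0.0318 and 0.0409 in WT and 0.0284 and 0.0341 in p53-/- libraries and overlapped. The ratio of Nr1d1 to Arntl was 0.322 and 0.480 in WT and 0.111 and 0.120 in p53-/- libraries and did not overlap. The ratio of Per3 to Arntl was the other way, at 0.0362 and 0.0426 in WT and 0.0652 and 0.0663 in p53-/-, also without overlap. The ratio of Dbp to Npas2 was 0.0183 and 0.0302 in WT and 0.0281 and 0.0405 in p53-/- libraries and overlapped. Only the ratio of Dbp to Arntl had been planned. All of these ratios hold the genotype difference by which the set was chosen.

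**Figure D2:**
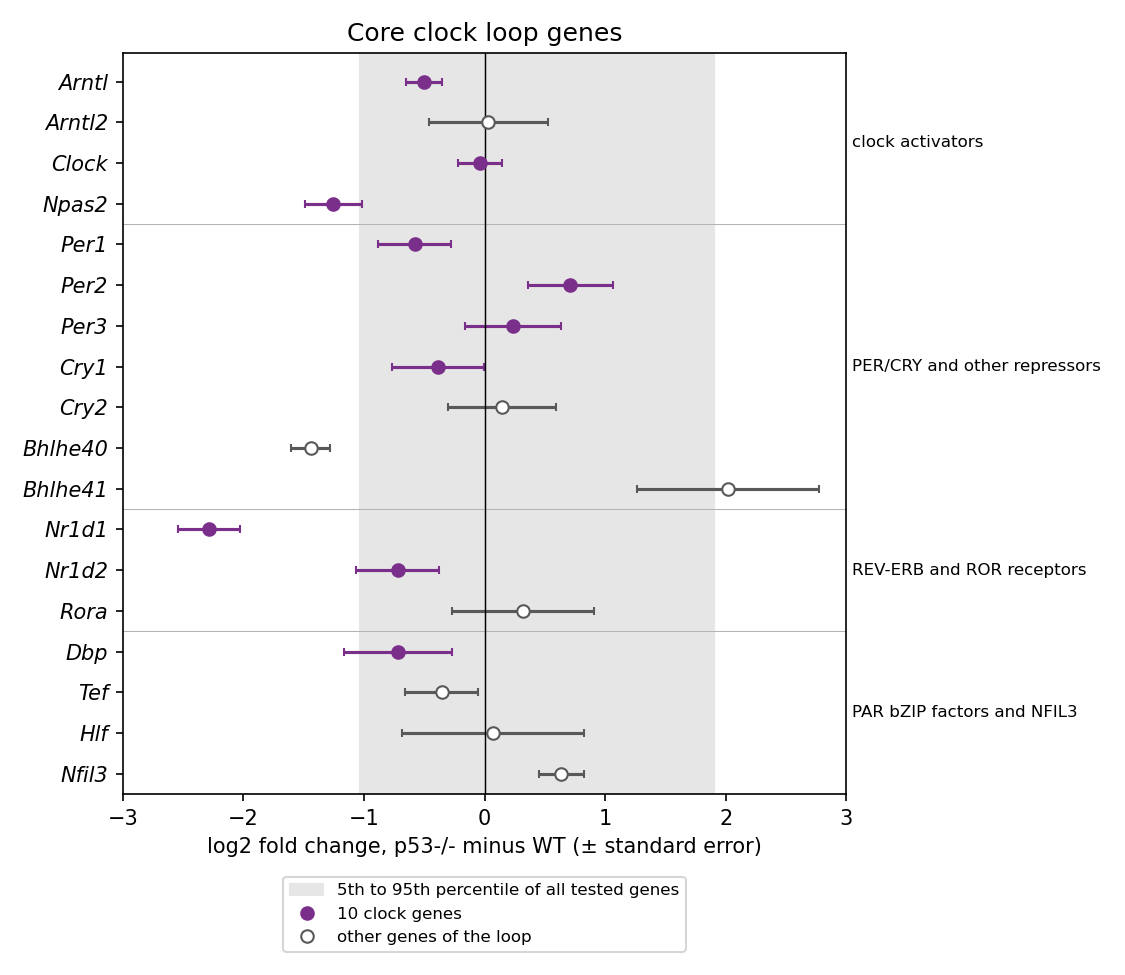
Log2 fold change (p53-/- minus WT, horizontal axis) with its standard error for tested genes of the clock loop, by role. Filled points are the 10 genes of the set and open points 8 of the 9 other tested loop genes, and the grey band spans the 5th to 95th percentile of all tested genes (-1.03 to 1.9). Nr1d1 (-2.29), Npas2 (-1.25) and Bhlhe40 (-1.44) lie below the band and Bhlhe41 (2.02) above it.

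Beyond the set, 11 further genes of the loop were listed and 9 were tested. Of these, 1 passed the threshold, and it was lower (0.193% of all genes were called lower), and the median log2 fold change of the 9 was 0.07. The gene was Bhlhe40, encoding the E-box repressor DEC1, at 172 and 164 CPM in WT and at 58.3 and 65.3 CPM in p53-/- libraries. It fell by 1.44 on the log2 scale (-1.44, standard error 0.165, adjusted p = 0.0478 by edgeR's quasi-likelihood test), but not past the threshold without library 9 (adjusted p = 0.146 by the same test) or without library 10 (0.330). The other scalings and filters that ended the call of Nr1d1 also ended that of Bhlhe40, at adjusted p-values of 0.0510 to 0.0583. Its paralog Bhlhe41, encoding DEC2, was the other way round, with 6 and 26 counts in WT and 89 and 90 counts in p53-/-. The log2 fold change of Bhlhe41 was 2.02 (standard error 0.754), and it did not pass (adjusted p = 0.254 by edgeR). Nfil3, which opposes DBP at D-boxes, was at 33.6 and 25.8 CPM in WT and at 45.7 and 46.8 CPM in p53-/-, without overlap and with a log2 fold change of 0.64. T cell markers were higher alongside, all 8 without overlap, where 26.4% of all genes were higher without overlap. They summed to 8.11 and 15.3 CPM in WT and to 69.2 and 128 CPM in p53-/- libraries. The 6 macrophage markers summed to 47.2 and 146 CPM in WT and to 180 and 580 CPM in p53-/-. Lyz2 made up most of the sum of library 10, at 411 CPM, against 53.2 CPM in library 9 and 12.4 and 46.1 CPM in WT. Adgre1 overlapped between the genotypes, and the other 5 markers were higher without overlap, against 26.4% of all genes. The part of both cell types in the values of Bhlhe41 and Nfil3 was not tested. Tef and Hlf, the other PAR bZIP factors, overlapped, with log2 fold changes of -0.36 and 0.07. Ciart, a repressor driven by E-boxes, had too few reads to be tested (0.324 to 0.495 CPM).

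Genes for proteins that modify or assist the clock were listed as well. All 14 kinases and ubiquitin ligases were tested and 0 passed by edgeR's quasi-likelihood test, 3 of them at an unadjusted p under 0.05, where 18% of all genes were. Their median log2 fold change was -0.21, with 13 negative and 1 positive. Without overlap, 7 were lower and 1 was higher, against 24.4% and 26.4% of all genes. DESeq2 also called 0 of these 14 (9.94% of all genes). The list ran from -0.74 for Prkaa2, a catalytic subunit of AMPK, to 0.31 for Fbxw7. Of 16 coregulators, 0 passed, with a median of 0.14. At an unadjusted p under 0.05 there were 3 (18% of all genes), and DESeq2 called 1 (9.94% of all genes). Their extremes were Kmt2a, a histone methyltransferase, at 0.87 and Ppargc1a, a coactivator of ROR receptors, at -1.10 (36.9 and 19.2 CPM in WT against 12.4 and 13.9 CPM). Of 7 output genes with a rhythm in many tissues, 0 passed (2 at an unadjusted p under 0.05, against 18% of all genes, and 0 by DESeq2), between Nampt at 0.51 and Klf9 at -0.61, with a median of -0.02.

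Glucocorticoids are known to reset clocks of peripheral tissues and to act on Per1 directly, so response genes of this hormone were listed beside the clock. Besides Per1, 11 of 12 listed genes were tested, 9 had a negative log2 fold change and 2 a positive one, and the median was -0.97. It was -0.30 without WT library 8. At an unadjusted p under 0.05, 5 were lower and 2 higher, against 7.92% and 10% of all genes. Without overlap, 6 were lower and 2 higher, against 24.4% and 26.4% of all genes. Of the 11, 1 passed the threshold, and it was lower, where 0.193% of all genes were called lower. The gene was Sgk1, a kinase that regulates ion transport, at 536 and 535 CPM in WT and at 128 and 151 CPM in p53-/-. Sgk1 fell by 1.94 on the log2 scale (-1.94, standard error 0.204, adjusted p = 0.0424 by edgeR's quasi-likelihood test), with adjusted p-values of 0.136 without library 9 and 0.315 without library 10 by the same test. Fkbp5, a chaperone of the receptor, was at 167 and 194 CPM in WT and at 73.3 and 49.7 CPM in p53-/- (adjusted p = 0.0735 by edgeR). The receptor gene Nr3c1 overlapped between genotypes (182 to 201 against 155 to 194 CPM). Cebpd went the other way, at 37.4 and 32.1 CPM in WT and at 79.2 and 121 CPM in p53-/-. Dusp1 had the lowest fold change of the list (-2.20), which rested on WT library 8 at 126 CPM, against 19.3 CPM in library 7 and 15.3 and 16.2 CPM in p53-/- libraries. DESeq2 called 4 of the 11, against 9.94% of all genes.

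**Figure D3:**
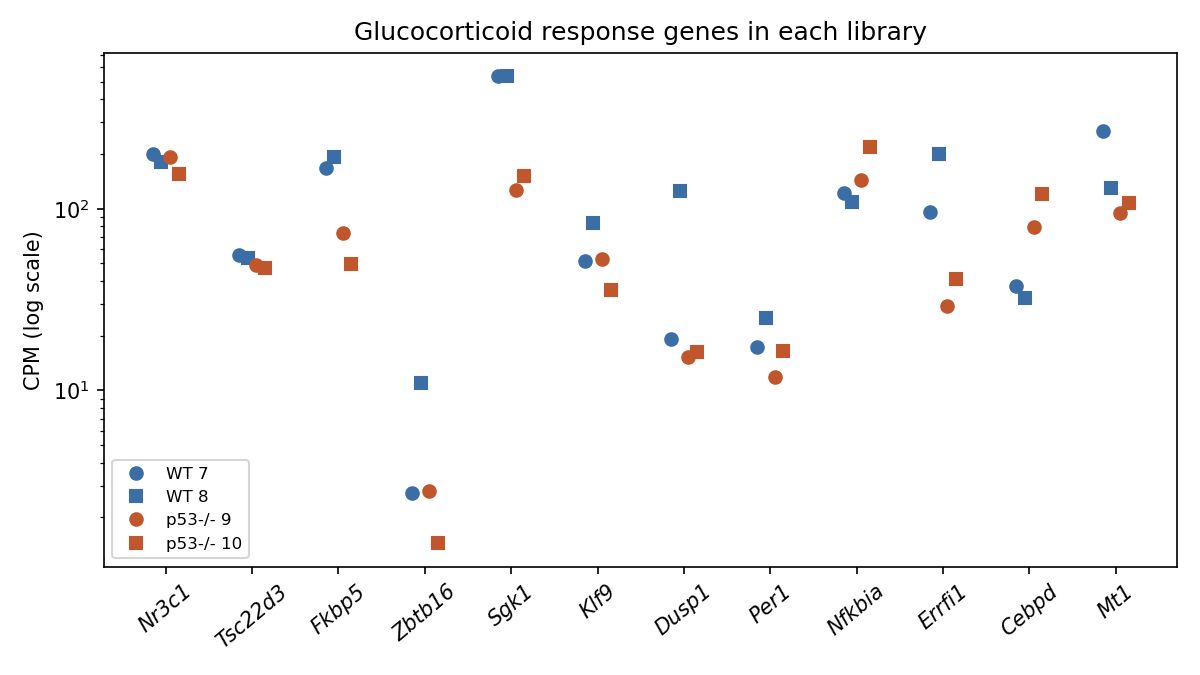
Level in CPM (vertical log axis) of the 12 tested glucocorticoid response genes, Per1 included, in each WT (blue) and p53-/- (orange) library. Sgk1, Fkbp5 and Errfi1 lie lower in both p53-/- libraries, Cebpd and Nfkbia higher, and WT library 8 stands apart for Dusp1 and Zbtb16.

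Immediate early and CREB-driven genes, which can induce Per1 upon stimulation, were listed next. Of 9 genes, 0 passed (1 at an unadjusted p under 0.05, against 18% of all genes, and 0 by DESeq2). The median log2 fold change was -0.22, and it was 0.036 without library 9 and -0.70 without library 10. Fos was at 122 and 346 CPM in WT and at 46.3 and 145 CPM in p53-/-. Atf3 had the lowest fold change (-1.73), with 270 CPM in WT library 8 and 42.5 to 59.4 CPM in the others, and Nr4a1 the highest (0.56), which rested on library 10 at 18.2 CPM, against 4.60 CPM in library 9 and 5.26 and 10.1 CPM in WT. Of 7 transport genes with a known daily rhythm in the gut, 0 passed. At an unadjusted p under 0.05 there were 3 (18% of all genes), and DESeq2 called 2 (9.94% of all genes). Slc9a3, the sodium-proton exchanger NHE3, was at 16.1 and 23.0 CPM in WT and at 105 and 51.0 CPM in p53-/-, a log2 fold change of 1.99. Slc15a1, the peptide transporter PEPT1, was at 370 and 465 CPM against 246 and 209 CPM (log2 fold change -0.88). Apoa4 had the lowest log2 fold change (-1.72, standard error 1.19), but the genotypes overlapped. It was at 260 and 28.4 CPM in WT and at 12.4 and 74.9 CPM in p53-/-. The glucose transporter gene Slc5a1 overlapped, at 1070 and 1205 CPM in WT and 1315 and 1115 CPM in p53-/-.

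Differences between libraries of the same genotype were not used in choosing the set. Between WT libraries (8 minus 7), Cry1 differed by -1.15, Nr1d2 by 0.71, Per1 by 0.54, Npas2 by -0.50 and Nr1d1 by 0.44 on the log2 scale. Between p53-/- libraries (10 minus 9), Per2 differed by -0.99, Nr1d2 by -0.54, Per1 by 0.47 and Clock by -0.37, while Nr1d1 (0.07), Arntl (-0.04) and Per3 (-0.02) were nearly equal. The median size of these differences over all genes was 0.36 in WT and 0.26 in p53-/-. For Cry1, Per2 and Clock the spread within a genotype was thus larger than the difference between genotypes, and for Nr1d1 and Npas2 it was smaller.

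**Figure D4:**
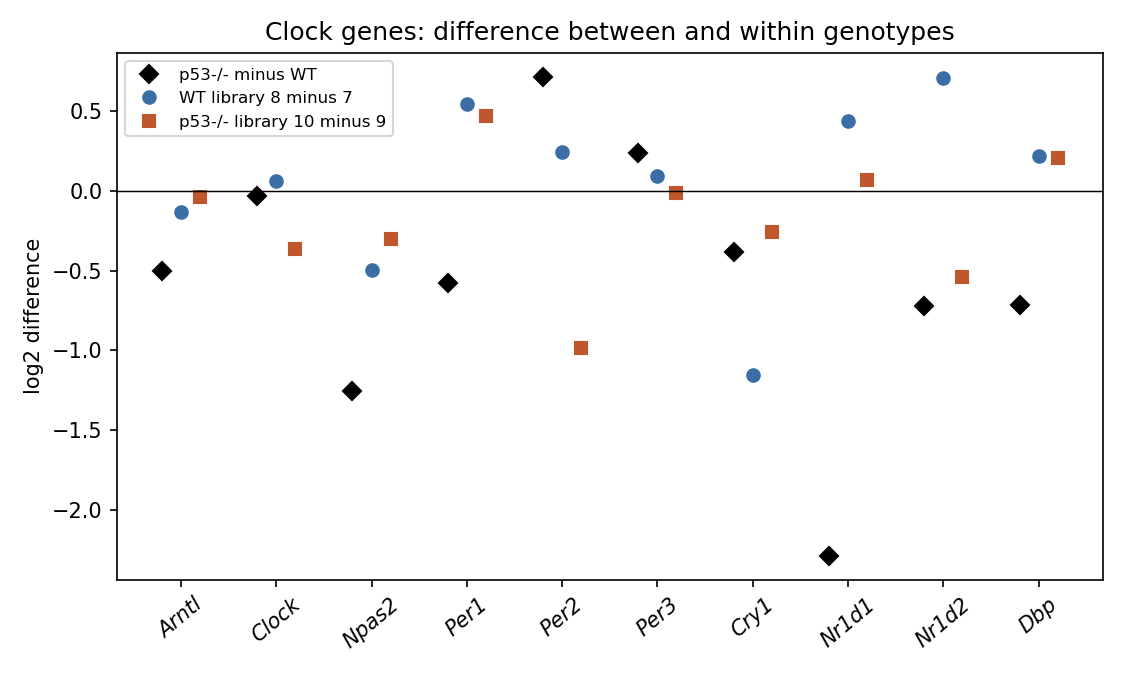
Log2 differences (vertical axis) for each of the 10 clock genes between genotypes (diamonds) and between the libraries of WT (circles) and of p53-/- (squares). The diamond of Nr1d1 (-2.29) lies far from its within-genotype differences (0.44 and 0.07), and for Cry1, Per2 and Clock a within-genotype difference is the larger.

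Per kilobase of exon (union of exons in GENCODE M21), Npas2 (25.9 ± 6.28 CPM per kb, SD, n = 2) and Cry1 (24.4 ± 13.1) led in WT and did not differ beyond their spread. Arntl (10.6 ± 0.711) and Nr1d1 (10.3 ± 2.21) followed, also within each other's spread, and then Clock (6.0 ± 0.171). Nr1d2 (4.10 ± 1.40), Per1 (3.77 ± 0.993) and Per2 (3.40 ± 0.404) could not be ordered, and Dbp (0.965 ± 0.107) and Per3 (0.327 ± 0.0156) were lowest. In p53-/- SI Cry1 (18.7 ± 2.34) lay above Npas2 (10.9 ± 1.61) and Arntl (7.49 ± 0.154). Nr1d1 (2.12 ± 0.0713) moved from rank 4 in WT to rank 8, next to Per1 (2.52 ± 0.577) and Nr1d2 (2.49 ± 0.655), from which it did not differ beyond their spread.

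By distance of the log2 levels over the 4 libraries, each centred on its gene's mean, the genes most like Arntl among 9269 at 10 CPM or more were Nr1h4, Sbds, Gm10499, Glud1 and Naa80 (distances of 0.01 to 0.03). Nr1h4, which encodes the bile acid receptor FXR, was at 251 and 227 CPM in WT and at 171 and 165 CPM in p53-/-. Those most like Dbp were Ebpl, Mafg, Adck5, Ugcg and Pgghg (0.08 to 0.13). No gene of the clock lists was among these 10, but those with a mean under 10 CPM, such as Per3, Bhlhe41 and Hlf, could not be named. The distance includes the genotype difference by which the set was chosen, so nothing is read from this.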

How the data were processed

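RNA of the SI was sequenced from poly-T selected libraries. The deposited values are read counts for each gene, before any normalization by the authors. The submitters' processing notes name fastp, HISAT2 2.0.5, featureCounts 1.5.0-p3 and DESeq2 1.20.0; the genome build, annotation and strand setting are not given in the sources used here. Column names show the genotype and no replicate of the labels. Libraries of the same genotype were not duplicates (chi-square per degree of freedom 34.5 and 48.9). Nothing further shows separate animals except the statement in the methods that n reflects biological replicates, so p-values measure the spread between these libraries.

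From the deposited counts, TMM scaling, filterByExpr and the two-sided quasi-likelihood test were run in edgeR 4.0.16 (R 4.3.3) on 16094 genes of all 4 libraries, with Benjamini-Hochberg adjustment (threshold 0.05). Alternatives used DESeq2 1.42.0 and other scalings and filters. Within-genotype differences used log2 CPM with a prior count of 2. The fit was tested on simulated counts, where the share of false calls was above the nominal threshold of 0.05. Exon lengths came from GENCODE M21, which holds 91.9% of the gene identifiers. The 10 genes and the lists were chosen with earlier results of these data known. Named are the 10 genes, in each list the genes past the threshold and those of largest rise and fall at a mean of 1 CPM or more, and the 5 genes nearest to Arntl and to Dbp. Fkbp5, Errfi1, Nfkbia, Zbtb16, Fos, Slc15a1, Slc5a1, Nfil3, Thra, Sphk2, Lyz2, Adgre1 and the crypt markers were also named after their values were seen. Some genes of the lists are counted but not reported here by name.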

Additional observations from a re-analysis of the deposited data

How the results depend on the processing

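No paired analysis was possible because the columns carry no replicate numbers of the labels. Over all genes, 48 higher and 31 lower calls became 26 and 20 under scaling by library size, 29 and 20 under upper-quartile scaling, 24 and 18 where every library had to hold 10 counts, 812 and 663 with DESeq2, 833 and 462 with the likelihood ratio test and 1433 and 761 with no filter, the last with an all-gene median of 0.15. Leaving out 1 library gave 0 to 680 higher and 0 to 344 lower calls, both 0 without library 10. Of the 10 clock genes, the number called lower was 0 with library size only (Nr1d1 -2.23), upper-quartile factors (-2.24), 10 counts in every library (-2.22) and the 18S gene left out (-2.25). It was 2 with DESeq2 (Npas2 -1.26), the likelihood ratio test (-1.25) and no filter (-1.20), where Per2 was also called, 1 higher (0.76). Leaving out 1 library gave 0 to 2, with Nr1d1 from -2.48 to -2.06, Npas2 from -1.49 to -0.97, Clock from -0.24 to 0.19 and Cry1 from -0.86 to 0.31. The sign of Clock also turned with library size only (0.030), upper-quartile factors (0.013), no filter (0.0079), 10 counts in every library (0.033) and the 18S gene left out (0.0069). Scaled to the enterocyte markers, which was chosen after seeing the data, the differences were 0.037 for Arntl, 0.49 for Clock and 0.26 for Cry1, all of turned sign, and -0.70 for Npas2, -0.028 for Per1, 1.17 for Per2, 0.77 for Per3, -1.71 for Nr1d1, -0.16 for Nr1d2 and -0.14 for Dbp. Apart from these changes in construction, the cause was not tested. With 2 libraries a genotype and under 100 counts a library, differences of the size seen for Dbp and Per3 could not be separated from their errors.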
